A study of Mus musculus with 11 samples.

Results

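Mitochondrial ribosomal proteins build the ribosome that works inside mitochondria, and their RNA was followed here in regulatory T cells (Tregs) of visceral adipose tissue (VAT) and spleen. The genes were taken by name, as every row whose symbol begins with Mrpl or Mrps followed by a digit, which gave 78 of the 10992 genes in the table. Of these, 49 are named Mrpl and 29 Mrps. Male mice aged 25 weeks were the source, and live cells positive for CD3, CD4 and Foxp3 were sorted. VAT KO (3 libraries) and spleen KO (2 libraries) came from Foxp3 YFP-cre mice with Srebf2 flox/flox, and VAT WT (3 libraries) and spleen WT (2 libraries) from Foxp3 YFP-cre mice with Srebf2 wt/wt. The Cre recombinase, driven by the Foxp3 gene and therefore made in Foxp3+ cells of every tissue, was thus carried by all 4 groups. Srebf2 encodes SREBP2, a transcription factor of cholesterol synthesis and uptake. Spleen KO replicate 1 was not analysed here, and the spleen libraries are numbered 2 and 3. A column headed as spleen WT replicate 1 matched no labelled sample and was not used, so spleen WT rests on 2 libraries.

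Mitochondria keep a small genome of their own, whose messenger RNAs encode core subunits of the respiratory chain and of ATP synthase. The mitochondrial ribosome translates these messages at the inner membrane. Its RNA is made inside the organelle, whereas its proteins are encoded in the nucleus, made in the cytosol and imported. It consists of a large subunit, which forms peptide bonds and holds the exit tunnel of the new chain, and a small subunit, which reads the messenger RNA. Some of its proteins descend from those of bacterial ribosomes and others were added during the evolution of mitochondria, and T cells are known to need mitochondrial translation for respiration. By textbook structure, 51 of the genes encode large-subunit proteins (30 with a bacterial homologue and 21 specific to mitochondria) and 26 small-subunit proteins (16 and 10). Mrps30 and Mrps18a are counted with the large subunit, where their proteins sit despite their names, and Mrps18a and Mrps18b are counted as mitochondria-specific because of the places they take in the particle. Mrps36, the remaining gene, encodes a subunit of the 2-oxoglutarate dehydrogenase complex and not a protein of the mammalian mitochondrial ribosome.

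The deposited unit is RPKM, which corrects read numbers for a gene's length and the library's size. Levels of different genes are set side by side on this unit, but the gene lengths used and the read depth were unknown. The RPKM of a library summed to 185318.6 to 198811.1 in 9 libraries and to 210778.5 in spleen WT replicate 2. RPKM of Srebf2, the deleted gene, was 0.263, 0.6 and 1.228 in the VAT KO libraries, against 16.599, 15.583 and 30.532 among VAT WT, and 2.59 and 1.593 in the spleen KO libraries, against 10.506 and 23.195 among spleen WT. KO and WT did not overlap in either tissue, and a two-sided exact permutation test had p = 0.1 in VAT and p = 0.333 in spleen, the smallest that 3 against 3 and 2 against 2 samples allow. All 7 T cell and Treg markers were present, and their RPKM summed to 927 to 965 in VAT KO, 965 to 973 in VAT WT, 719 to 752 in spleen KO and 756 to 834 in spleen WT. Foxp3, which defined the sort, averaged 15.2 ± 1.67 RPKM over VAT KO, 15.3 ± 0.534 over VAT WT, 8.34 ± 0.742 over spleen KO and 7.83 ± 1.22 over spleen WT (SD, n = 3 in VAT and n = 2 in spleen). Markers of other cells had lower sums. For B cells (3 of 4 markers analysed) the RPKM sums were 13.6 to 28.3 for VAT KO, 13.0 to 59.9 for VAT WT, 29.2 to 34.3 for spleen KO and 25.7 to 31.4 for spleen WT. For myeloid cells (2 of 5) they were 0.304 to 4.07 for VAT KO, 0.504 to 1.05 for VAT WT, 0.97 to 2.03 for spleen KO and 2.42 to 3.68 for spleen WT. For CD8 and NK cells (2 of 4) they were 7.88 to 11.6 for VAT KO, 4.93 to 18.4 for VAT WT, 14.4 to 19.5 for spleen KO and 11.1 to 20.0 for spleen WT. Of 4 adipocyte markers Lipe alone was analysed, with 1.63 to 2.96 RPKM across VAT libraries and 2.26 to 3.40 across spleen libraries. No marker analysed was at 0, and the part of other cells in the results below was not tested. In bulk RNA, fewer cells of a type and less RNA per cell cannot be told apart. Whether each library is a different mouse is not stated in the labels. P-values therefore measure only how far these libraries spread, which may be technical.

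All 78 genes were detected, and none was listed at 0 in any library. Their mean over the 10 libraries ran from 1.56 RPKM for Mrpl53 to 48.4 RPKM for Mrpl34, a 31.0-fold span with a median of 13.4 RPKM. Mrpl34 encodes the counterpart of a very small bacterial large-subunit protein. Next to it stood Mrpl54, specific to mitochondria, at 36.3 RPKM and Mrpl18, whose bacterial counterpart binds the 5S ribosomal RNA, at 34.3 RPKM. At the low end stood Mrpl53 and, in the small subunit, Mrps10 with 2.82 RPKM and Mrps25 with 3.62 RPKM. A mean of at least 10 RPKM was reached by 51 genes, and 9 lay under 5 RPKM. Of the 10 highest genes of each group, 8 were shared by all 4 groups. Class medians of the mean level were 14.1 RPKM for large-subunit proteins with a bacterial homologue, 13.2 for mitochondria-specific large-subunit proteins, 16.6 for small-subunit proteins with a bacterial homologue and 9.0 for mitochondria-specific small-subunit proteins. Each class spanned a range much wider than these differences, for example 1.56 to 36.3 RPKM among the mitochondria-specific large-subunit proteins. Genes for proteins of the same particle were thus not equal in RPKM. By GENCODE, Mrpl34 has the shortest merged exons of the 78, at 607 bases against a median of 2394. Of the low genes, Mrps10 has 8079 and Mrps25 6576, whereas Mrpl53 has 790. Whether the lengths used for RPKM shaped this ranking was not tested.

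**Figure D1:**
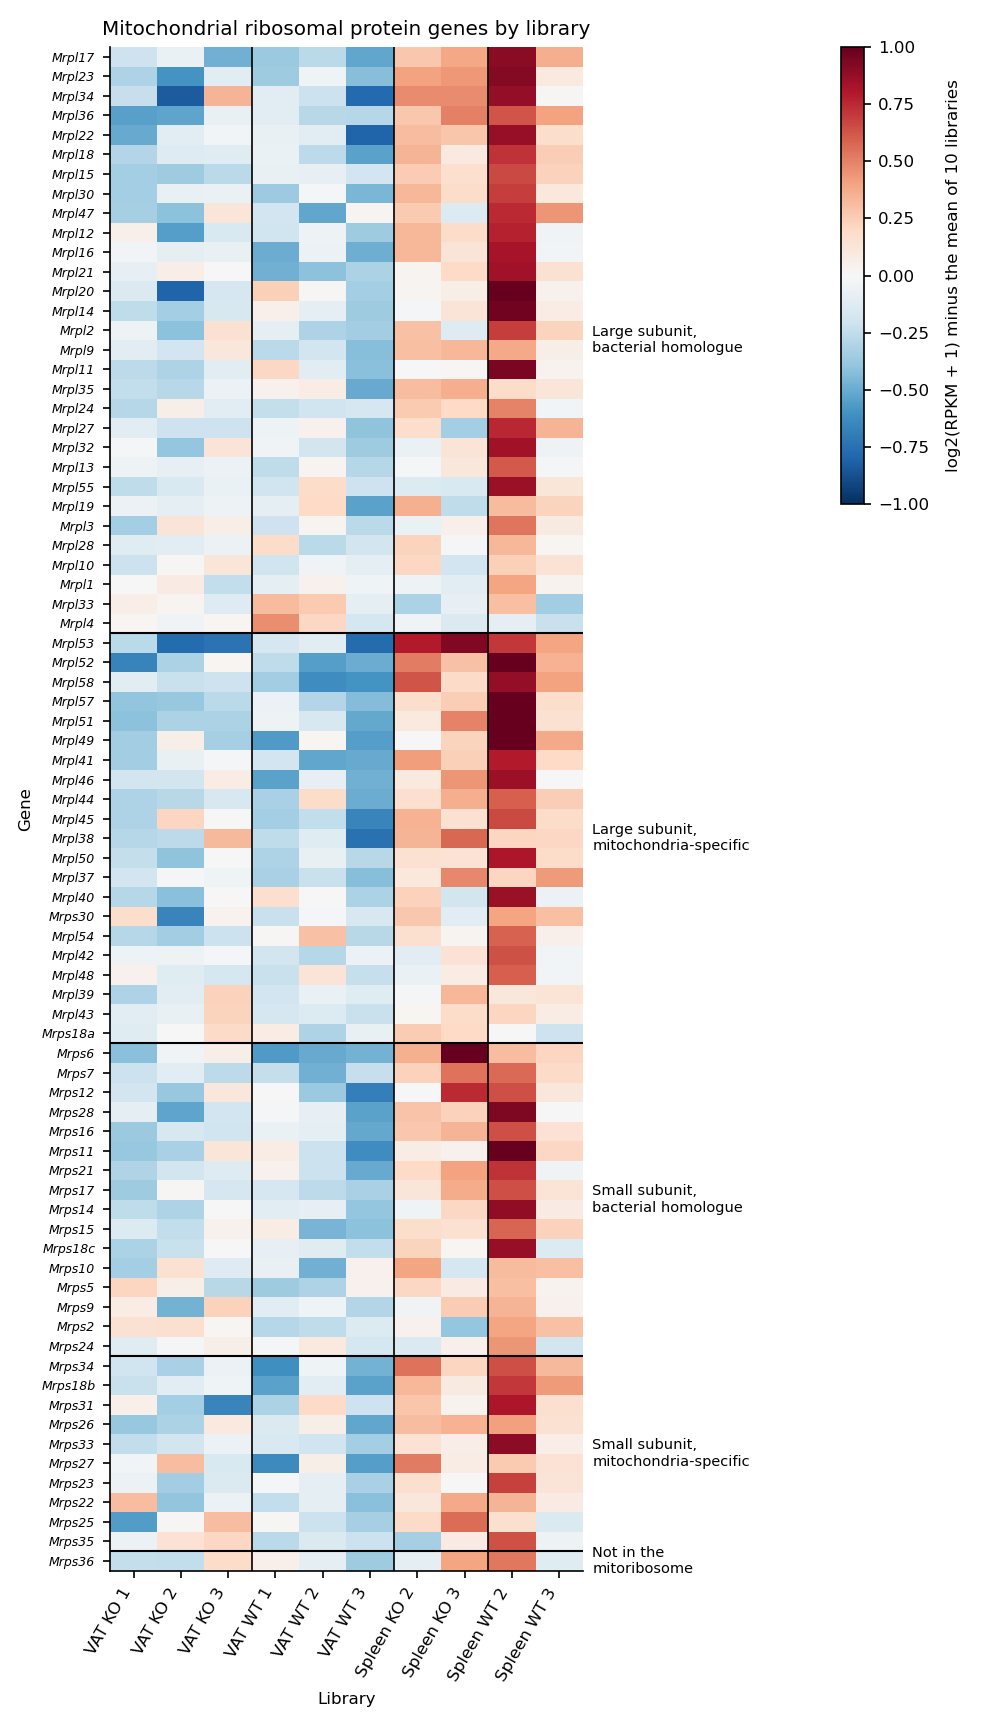
Rows are the 78 genes, grouped by subunit and origin and sorted within a class by the VAT minus spleen difference, and columns are the 10 libraries. Colour gives log2(RPKM + 1) minus the gene's mean over the 10 libraries, cut at -1 and 1. The 6 VAT columns are mostly blue, the spleen columns mostly red, and spleen WT replicate 2 is the darkest column, with the highest value of 62 of the 78 genes.

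As a set, the genes differed in level from library to library. Their median level was 10.8, 10.8 and 12.8 RPKM in the VAT KO libraries 1 to 3, and 10.9, 11.4 and 9.67 RPKM in the VAT WT libraries 1 to 3. It was 15.2 and 15.0 RPKM in spleen KO 2 and 3, and 20.2 and 14.3 RPKM in spleen WT 2 and 3. Every VAT library was below every spleen library, and spleen WT replicate 2 was above the other 9. Together the 78 genes took 0.496%, 0.496% and 0.555% of all RPKM in VAT KO libraries, 0.512%, 0.511% and 0.441% in VAT WT libraries, 0.690% and 0.681% in spleen KO, and 0.861% and 0.648% in spleen WT. Set against the mean of all libraries on the log2(RPKM + 1) scale, the median gene stood at -0.23, -0.18 and -0.06 in VAT KO, -0.16, -0.10 and -0.35 in VAT WT, 0.20 and 0.18 in spleen KO, and 0.65 and 0.12 in spleen WT. The median of all 10429 genes tested moved less on the same scale, between -0.08 and 0.08. By gene, 73 had their lowest value in a VAT library and 75 their highest in a spleen library. Of these highest values 62 were in spleen WT replicate 2. With that library left out, 65 genes still had their highest value in spleen.

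Spleen WT replicate 2 lay apart from spleen WT replicate 3 in these genes and in other gene groups of protein and energy production. Its value was above that of replicate 3 for 76 of the 78 genes, with a median difference of 0.51 on the log2 scale, while over all tested genes the median was -0.02 and 48.1% were above. Mrpl37 (-0.21) was among the exceptions, and the largest difference was 1.06. Nuclear genes of oxidative phosphorylation differed by a median of 0.86 and cytosolic ribosomal proteins by 0.90 between these 2 libraries. Mitochondrial translation factors (-0.07) and tRNA synthetases (0.02) did not share the shift. Because spleen WT has 2 libraries, results that rest on it are given with and without replicate 2.

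**Figure D2:**
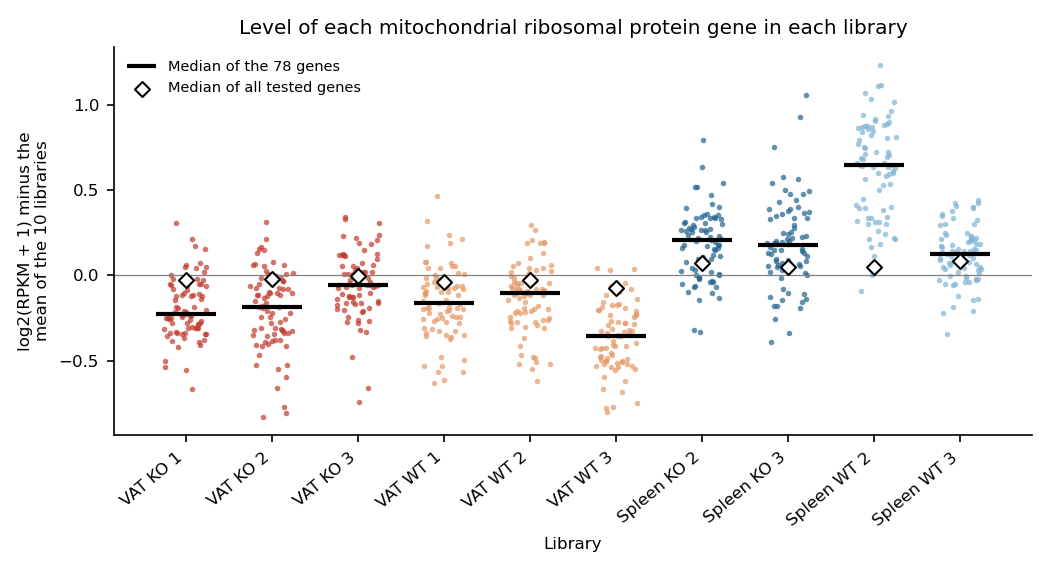
Each point is 1 of the 78 genes in 1 library, as log2(RPKM + 1) minus the gene's mean over the 10 libraries, the bar is their median and the diamond the median of all 10429 tested genes. The gene medians lie between -0.35 and -0.06 in VAT and between 0.12 and 0.65 in spleen, with spleen WT replicate 2 highest, while the diamonds stay near 0.

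VAT Tregs held less mitochondrial ribosomal protein RNA than spleen Tregs among WT mice. Of the 78 genes, 35 were lower and 0 higher in VAT WT than in spleen WT at a limma adjusted p under 0.05. That is 44.9% lower, against 15.4% of all 10429 tested genes called lower and 10.7% called higher. The log2 difference was below 0 for 75 genes, with a median of -0.59, so that the median gene in VAT stood at 66.5% of its spleen level. The median of all tested genes was -0.12, and 6154 of the 10429 were below 0. Among the genes called, differences ran from -0.52 to -1.17. The 3 VAT WT values were all below both spleen WT values for 58 genes, 74.4%, against 31.0% of all tested genes. Scaling by median ratios gave a median over all genes of 0.01, where it was -0.12 unscaled, and 1389 higher and 1029 lower calls over all genes, where there were 1116 higher and 1607 lower. The 78 genes then had a median of -0.45 with 75 still below 0, and 13 were called lower.

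Mrpl58 had the smallest p of these. It encodes a peptidyl-tRNA hydrolase that is built into the large subunit and frees stalled ribosomes. Mrpl58 stood at 3.378, 2.63 and 2.69 RPKM in VAT WT against 9.276 and 6.388 in spleen WT. The groups were far apart, with a log2 difference of -1.17 ± 0.23 (SE, limma adjusted p = 0.00246). Mrpl52, specific to the mitochondrial large subunit, stood at 20.037, 16.209 and 16.791 RPKM in VAT WT against 53.539 and 30.985 in spleen WT. Its log2 difference was -1.17 ± 0.24 (adjusted p = 0.00379), and the higher spleen value was that of replicate 2. Mrps18b, a small-subunit protein, stood at 7.372, 10.174 and 7.357 RPKM in VAT WT against 18.775 and 15.256 in spleen WT. Both spleen values were above all VAT values (-0.96 ± 0.19, adjusted p = 0.00316). Mrpl41, another mitochondria-specific large-subunit protein, fell by 0.90 on the log2 scale (adjusted p = 0.00528), and Mrpl17, the counterpart of a bacterial protein near the tunnel exit, by 1.02 (adjusted p = 0.00627). Mrpl21 (-0.90), Mrpl49 (-1.11), Mrpl18 (-0.77), Mrps7 (-0.70), Mrpl36 (-0.73), Mrpl45 (-0.84) and Mrpl57 (-0.96) followed, with adjusted p between 0.00637 and 0.0152. Mrpl45 is known to tie the large subunit to the inner membrane, and the bacterial counterpart of Mrps7 starts the folding of the small subunit's head.

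The number of calls in WT changed with single libraries left out, while the direction stayed. Without spleen WT replicate 2, 4 genes were called lower, 5.13% against 8.67% of all genes: Mrpl58 (-0.93), Mrps18b (-0.82), Mrpl52 (-0.78) and Mrpl37, a mitochondria-specific large-subunit protein. All 4 were also called with that library. The share called was then under that of all genes, so the calls left without that library do not set these genes apart. The median without it was -0.35, against -0.14 for all genes, and 73 genes were below 0. With spleen WT replicate 3 left out, the median was -0.88, against -0.09 for all genes. Without VAT WT replicate 1, 19 genes (24.4%) were called lower, against 11.2% of all genes. Without VAT WT replicate 3 it was 12 genes (15.4%), against 9.96%. Leaving out a spleen WT library leaves 1 sample in that group, which is then assumed to vary like the others.

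KO Tregs gave the same tissue question in libraries of their own. VAT KO was lower than spleen KO for 5 of the 78 genes and higher for 0. The share of 6.41% is near the 6.94% of all tested genes called lower (7.65% were called higher), so the calls do not set these genes apart. The differences themselves were below 0 for 72 genes, with a median of -0.30 (81.1% of the spleen level) against -0.09 over all tested genes. Under quantile and median-ratio scaling 68 were below 0. For 44 genes, 56.4%, all VAT KO values were below both spleen KO values, against 30.4% of all tested genes. The count of calls was 12 without either spleen WT library, which are not in this comparison but share the estimate of spread, beside 11.4% of all genes without replicate 2 and 11.3% without replicate 3. It was 1 without VAT KO replicate 1 (4.0% of all genes) or spleen KO replicate 3 (2.70%), 2 without VAT KO replicate 2 (4.89%) or spleen KO replicate 2 (2.85%), and 3 without VAT WT replicate 1 (6.20%) or 3 (6.22%). All 5 genes were also called in WT, which is 100% of the KO list and 14.3% of the WT list. Of all 78 genes, 44.9% were called in WT. This overlap is of calls made with all 10 libraries, and the same overlap over all tested genes was not counted. The 5 are not among the genes named above as called in WT without spleen WT replicate 2. KO and WT calls within that fit were not compared.

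Mrpl53, a mitochondria-specific large-subunit protein and the lowest of the 78, had the largest difference. It stood at 0.933, 0.366 and 0.393 RPKM in VAT KO libraries, 1.078, 1.164 and 0.364 in VAT WT libraries, 3.033 and 3.428 in spleen KO, and 2.795 and 2.062 in spleen WT. All 6 VAT values were below all 4 spleen values. Its log2 difference between VAT and spleen was -1.45 ± 0.27 in KO (SE, limma adjusted p = 0.00329), which understates a change at such low levels. By GENCODE, 695 of the 790 exon bases of Mrpl53 are shared with another protein-coding gene, Gm42688, whose reads cannot be told apart there. Mrpl36, the counterpart of a small bacterial large-subunit protein, stood at 11.11, 11.225 and 15.745 RPKM in VAT KO libraries, 15.381, 13.546 and 13.474 in VAT WT libraries, 20.206 and 23.92 in spleen KO, and 26.206 and 22.217 in spleen WT. Here too the tissues did not overlap, with -0.76 ± 0.19 in KO (adjusted p = 0.0151) and -0.73 ± 0.19 in WT (adjusted p = 0.0124). Mrpl36 kept nearly the same spacing in both genotypes.

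In the small subunit, Mrps6, the counterpart of a bacterial protein, stood at 9.567, 12.828 and 13.698 RPKM in VAT KO libraries, 8.546, 8.949 and 9.217 in VAT WT libraries, 17.133 and 28.451 in spleen KO, and 16.562 and 15.416 in spleen WT. Every VAT value was below every spleen value, and the 2 spleen KO values lay far apart (KO difference -0.84 ± 0.22, limma adjusted p = 0.0213). For Mrps7 the values were 19.055, 20.655 and 18.454 RPKM in VAT KO libraries, 18.744, 15.68 and 18.836 in VAT WT libraries, 26.383 and 32.857 in spleen KO, and 33.443 and 25.638 in spleen WT. The tissues were again apart (-0.58 ± 0.17 in KO, adjusted p = 0.0403). Mrpl23, whose bacterial counterpart sits at the tunnel exit, stood at 14.293, 11.545 and 16.49 RPKM in VAT KO libraries, 13.806, 17.369 and 13.074 in VAT WT libraries, 24.04 and 24.529 in spleen KO, and 34.738 and 19.3 in spleen WT. Its KO difference was -0.76 ± 0.24 (adjusted p = 0.0495), close to the threshold.

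**Figure D3:**
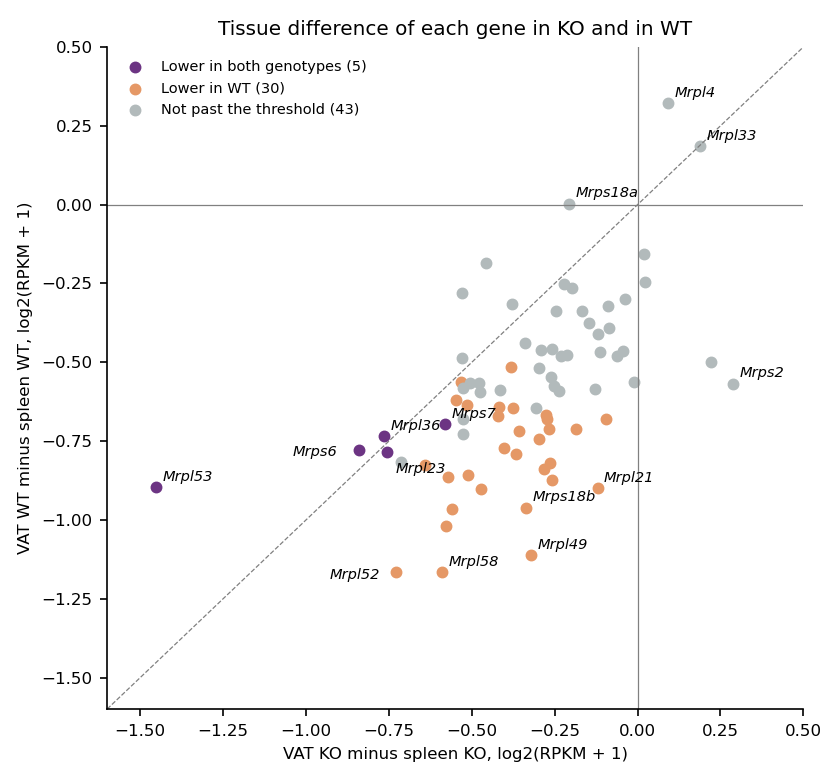
Each point is 1 of the 78 genes, with the VAT KO minus spleen KO log2 difference on the horizontal axis and the VAT WT minus spleen WT difference on the vertical axis. Colour shows the calls at an adjusted p under 0.05, and the dashed line marks equal differences. Of the 78 points, 71 lie below 0 on both axes, and most lie under the dashed line.

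Both tissue differences pointed the same way for most genes. They were below 0 in both genotypes for 71 of the 78. Across the 78 genes, the KO and the WT difference, which share no library, had a Pearson correlation of 0.547 and a Spearman correlation of 0.580, and 0.524 and 0.492 without spleen WT replicate 2. Over all 10429 tested genes the values were 0.854 and 0.708. These correlations run across genes, which share libraries and are not independent, and are given as a description.

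Averaging the KO and the WT tissue difference, a comparison added after the data were seen, gave 46 genes lower in VAT and 0 higher. That is 59.0% against 21.5% of all tested genes called lower and 13.9% called higher. The median was -0.48, or 71.6% of the spleen level, against -0.10 over all genes, and 76 genes were below 0. Without spleen WT replicate 2, 26 genes were called lower, 33.3% against 20.2% of all genes, with a median of -0.34, and all 26 were among the 46. Without spleen KO replicate 2 the count was 28 (15.6% of all genes), and without spleen KO replicate 3 it was 27 (15.7%). In 27 genes, 34.6% against 15.4% of all tested genes, all 6 VAT values lay below all 4 spleen values. Those with the smallest p were Mrpl53 (-1.18), Mrpl36 (-0.75), Mrpl52 (-0.95), Mrpl58 (-0.88), Mrps6 (-0.81), Mrps7 (-0.64), Mrpl17 (-0.80), Mrpl41 (-0.69), Mrps18b (-0.65), Mrpl23 (-0.77), Mrpl18 (-0.59) and Mrps34 (-0.72). Their adjusted p lay between 0.000508 and 0.00467, and without spleen WT replicate 2 between 0.00244 and 0.0158. Under median-ratio scaling 24 genes were called lower, beside 1784 genes higher and 1543 lower over all, where the unscaled values gave 1445 higher and 2240 lower.

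**Figure D4:**
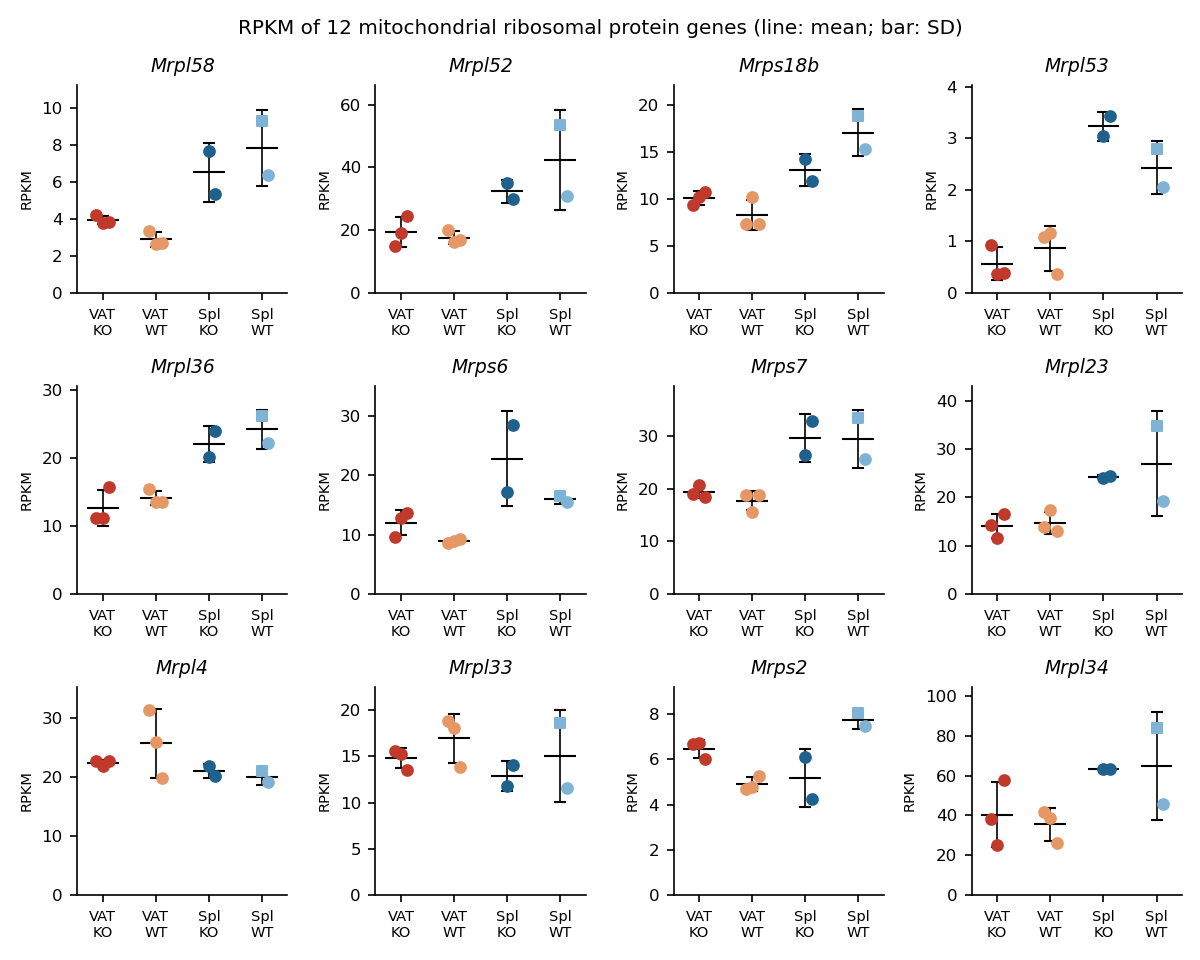
RPKM of 12 genes in each library, in the groups VAT KO, VAT WT, spleen KO and spleen WT, with the mean as a line and the SD as a bar (n = 3 in VAT, n = 2 in spleen), and spleen WT replicate 2 as a square. For the 8 genes from Mrpl58 to Mrpl23 every VAT point is below every spleen point, whereas Mrpl4 and Mrpl33 have their highest points in VAT WT.

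A few genes stood outside the common direction. Mrpl4, whose bacterial counterpart lines the exit tunnel, stood at 22.663, 21.87 and 22.658 RPKM in VAT KO libraries, 31.305, 25.95 and 19.748 in VAT WT libraries, 21.791 and 20.124 in spleen KO, and 20.986 and 19.073 in spleen WT. Its VAT WT values overlapped with spleen WT, with a log2 difference of 0.32 ± 0.18 (limma adjusted p = 0.214), and its VAT KO values lay just above spleen KO (0.09). Mrpl33, the counterpart of a small bacterial protein, stood at 15.633, 15.22 and 13.581 RPKM in VAT KO libraries, 18.859, 18.11 and 13.905 in VAT WT libraries, 11.759 and 14.049 in spleen KO, and 18.57 and 11.543 in spleen WT. The groups overlapped in both genotypes (0.19 ± 0.21 in KO and 0.19 ± 0.21 in WT), and the WT difference was -0.14 without spleen WT replicate 3. Mrps35 (0.22) and Mrps2 (0.29) were also above 0 in KO. None of these passed the threshold.

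Mammals carry 3 relatives of the bacterial small-subunit protein S18, Mrps18a, Mrps18b and Mrps18c. Mrps18b, described above, was lower in VAT WT. Mrps18c, the one at the bacterial position, stood at 16.484, 17.656 and 20.843 RPKM in VAT KO libraries, 19.507, 18.935 and 17.323 in VAT WT libraries, 24.367 and 21 in spleen KO, and 38.838 and 18.744 in spleen WT. Its high spleen value was that of WT replicate 2, and the WT difference was -0.52 ± 0.24 (limma adjusted p = 0.133). Mrps18a, in the large subunit, stood at 7.535, 8.236 and 9.571 RPKM in VAT KO libraries, 8.79, 6.51 and 7.79 in VAT WT libraries, 10.07 and 9.653 in spleen KO, and 8.277 and 7.019 in spleen WT. VAT WT and spleen WT overlapped for Mrps18a, with a log2 difference of 0.00 ± 0.19. Differences between the 3 genes were not tested.

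The median difference between VAT WT and spleen WT was below 0 in all structural classes. Of all tested genes 15.4% were called lower, and their median was -0.12. Of the large-subunit proteins 25 of 51 were called lower with a median of -0.59, and of the small-subunit proteins 10 of 26 with a median of -0.58. By origin, the counts were 13 of 30 (median -0.59) for large-subunit proteins with a bacterial homologue and 12 of 21 (-0.64) for mitochondria-specific ones. In the small subunit they were 7 of 16 (-0.63) with a bacterial homologue and 3 of 10 (-0.56) specific to mitochondria. Mrps36, which is not in the mitochondrial ribosome, had -0.34 and was not called. Leaving out spleen WT replicate 2, class medians lay between -0.28 and -0.43, against -0.14 for all tested genes. The counts of calls were then lower in every class. Between VAT KO and spleen KO, class medians lay between -0.28 and -0.37, against -0.09.

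Promoters are shown for 5 of the 12 genes named for the smallest p of the averaged tissue difference, picked because they hold a motif match in the bases printed, as the 100 bases before a transcript start in RefSeq on GRCm38.p6, written 5′ to 3′ on the gene's strand. Capitals mark matches, on either strand, to 3 motifs of factors known from textbooks at genes of mitochondrial proteins: GCGCANGCG for NRF1, AAGATGGCG for YY1 and CCGGAAG for ETS factors such as GABP. Mrpl17 (chr7:105811088-105811187, minus strand) holds the NRF1 motif at both marks, Mrpl36 (chr13:73330909-73331008, plus strand) the YY1 motif, and Mrpl52 (chr14:54426809-54426908, plus strand), Mrpl53 (chr6:83109008-83109107, plus strand) and Mrpl58 (chr11:115403652-115403751, plus strand) the ETS motif within these bases. Of the other genes among the 12, the longer windows of Mrps6, Mrps7, Mrpl41 and Mrpl23 held none of the 3 motifs, and those of Mrpl18 and Mrps18b held matches outside these bases.
Mrpl17: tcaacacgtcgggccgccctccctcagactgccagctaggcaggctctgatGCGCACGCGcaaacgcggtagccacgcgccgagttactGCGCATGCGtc
Mrpl36: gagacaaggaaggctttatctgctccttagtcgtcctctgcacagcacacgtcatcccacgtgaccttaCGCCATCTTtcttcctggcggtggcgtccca
Mrpl52: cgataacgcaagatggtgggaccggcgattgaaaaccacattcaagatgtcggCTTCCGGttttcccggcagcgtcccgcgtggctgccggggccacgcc
Mrpl53: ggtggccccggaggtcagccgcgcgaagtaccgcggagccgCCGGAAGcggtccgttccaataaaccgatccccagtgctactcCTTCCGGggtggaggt
Mrpl58: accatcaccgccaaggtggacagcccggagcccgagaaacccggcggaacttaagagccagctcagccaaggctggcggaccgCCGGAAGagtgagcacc

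A window of 300 bases, 250 before and 50 after a start, was given for 69 of the 78 genes (75 windows). None of the 3 motifs contains another. NRF1 matched in 23.2% of the 69 genes, against 16.7% of 8440 tested genes and 7.03% of all 27025 genes with a window. YY1 matched in 11.6%, against 4.10% and 1.64%. The ETS motif matched in 37.7%, against 22.7% and 9.93%. Any of the 3 was found in 60.9%, against 37.8% of tested genes. Within the 69 genes, those called lower in VAT WT and the others had like shares, 24.2% and 22.2% for NRF1, 9.09% and 13.9% for YY1, and 39.4% and 36.1% for ETS. A match is a run of letters and does not show binding.

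With Srebf2 deleted, none of the 78 genes was called higher or lower in VAT. Between VAT KO and VAT WT, 0 were past the limma threshold, against 0.422% of all tested genes. At an unadjusted p under 0.05 there was 1 of the 78, higher in KO, beside 459 higher and 308 lower over all 10429 tested genes. The log2 difference was above 0 for 52 and below 0 for 26, with a median of 0.07 against 0.02 over all genes, and values ran from -0.34 to 0.42. Groups did not overlap in 9 genes, with 8 higher in VAT KO (10.3%, against 8.97% of all tested genes) and 1 lower (1.28%, against 6.16%). Mrpl21 had the smallest p. Its 3 values were 12.263, 13.7 and 13.061 RPKM for VAT KO and 9.072, 9.543 and 10.298 RPKM for VAT WT, without overlap (0.40 ± 0.18, limma adjusted p = 0.677). Next came Mrpl45 (0.38), Mrps6 (0.38) and Mrps27 (0.42), a small-subunit protein of the RNA-binding pentatricopeptide family. Mrpl20 (-0.34), Mrpl54 (-0.29) and Mrpl53 (-0.25) had the lowest differences. The median was -0.01 without VAT KO replicate 3, the VAT library with the highest level of these genes, and 0.01 without VAT WT replicate 3, the one with the lowest.

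In spleen, too, none of the 78 genes was called between KO and WT, against 0% of all tested genes. Srebf2 itself, the deleted gene, was not called there (-2.45 ± 0.40, limma adjusted p = 0.244). With 2 libraries a group, the lack of calls does not show that the 78 genes were unchanged. At an unadjusted p under 0.05 there were 4 of the 78, all lower in KO, beside 406 higher and 467 lower over all tested genes. The difference was below 0 for 64 genes and above 0 for 14, with a median of -0.20 against -0.03 over all genes. This direction came with spleen WT replicate 2: without it the median was 0.06, with 50 genes above 0. Without spleen WT replicate 3 the median was -0.48, and 12 genes were called lower, against 6.38% of all genes. Groups did not overlap in 13 genes lower in KO (16.7%, against 17.5% of all tested genes) and in 6 higher (7.69%, against 15.0%).

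Mrpl27, the counterpart of a bacterial protein near the peptide-forming centre, had the smallest p in spleen. It stood at 19.21 and 13.181 RPKM in spleen KO against 29.174 and 21.628 in spleen WT (-0.63 ± 0.23, limma adjusted p = 0.593). For Mrpl55 the values were 7.92 and 7.796 RPKM in spleen KO against 16.837 and 9.633 in spleen WT, and for Mrpl49 9.895 and 11.702 RPKM in spleen KO against 22.448 and 13.123 in spleen WT. In both, replicate 2 of spleen WT lay far above the rest. Mrps2 (-0.52) was the other of the 4. Mrps6 (0.44), Mrps25 (0.37) and Mrps18a (0.33) had the highest differences, with KO above WT in every library and unadjusted p over 0.05.

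The effect of genotype was not shown to differ between VAT and spleen for any of the 78 genes. In the interaction test 0 were called, against 0% of all tested genes. An unadjusted p under 0.05 was reached by 3 of the 78, all above 0. Over all 10429 tested genes 448 above 0 and 290 below 0 reached it. The interaction, KO minus WT in VAT minus the same in spleen, was above 0 for 69 genes with a median of 0.26 against 0.05 over all genes. Without spleen WT replicate 2 the median was 0.01, with 40 genes above 0 and 38 below. Without spleen WT replicate 3 it was 0.51, and 2 genes were called higher (2.10% of all genes). The same test covers the tissue difference in KO against that in WT, so the counts of 5 and 35 calls above do not show that the tissues differed less in KO. Mrps2, the counterpart of a bacterial small-subunit protein, had the largest interaction. Its values were 6.669, 6.724 and 5.995 RPKM for VAT KO and 4.67, 4.79 and 5.256 for VAT WT, and 6.088 and 4.262 for spleen KO and 8.044 and 7.456 for spleen WT. KO was above WT in every VAT library and below it in every spleen library (0.86 ± 0.28, limma adjusted p = 0.621). Mrpl49 (0.79) and Mrpl21 (0.78) followed, Mrps18b (0.62) being the other with an unadjusted p under 0.05, and Mrpl53 (-0.56), Mrps25 (-0.27) and Mrpl35 (-0.25) had the lowest values.

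Other genes of mitochondrial protein synthesis and energy production were counted beside the 78, in VAT WT against spleen WT, where 15.4% of all tested genes were called lower. The shares called lower in the assembly, translation factor, tRNA synthetase and regulator lists were not above that, and their called genes are named singly. Mitochondrial ribosomal proteins with other names numbered 5, and 2 were lower with a median of -0.59, namely Gadd45gip1 (-0.86) and Chchd1 (-1.09). Of 21 genes for assembly of the mitochondrial ribosome 3 were lower with a median of -0.39, among them Ngrn (-1.49) and the ribosomal RNA methyltransferases Mrm1 (-0.63) and Mrm2 (-1.18). Translation factors had 2 of 18 lower (median -0.33), the elongation factor Tufm (-0.58) and the initiation factor Mtif3 (-0.72). Mitochondrial tRNA synthetases had 1 of 17 lower (-0.27), Pars2 (-0.96), which loads proline. Of 9 genes for mitochondrial DNA and its transcription 3 were lower and 1 higher (-0.49). Lower were the packaging factor Tfam (-0.66), the helicase Twnk (-1.13) and Mterf1a (-1.16), and higher was Polg2 (0.75), a subunit of the DNA polymerase. Of 8 regulators of mitochondrial biogenesis tested, 1 was lower and 1 higher (median 0.32). The share of 12.5% lower stood against 15.4% of all tested genes, of which 10.7% were called higher. Lower was Pprc1, a coactivator (-0.82), and higher the nuclear receptor Esrra (0.70). Cytosolic ribosomal proteins had 70 of 78 lower and 1 higher (-0.92), and nuclear oxidative phosphorylation genes 24 of 76 lower and 0 higher (-0.55). RNAs encoded by the mitochondrial genome were not analysed here.

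Leaving out spleen WT replicate 2, the median of VAT WT against spleen WT was -0.35 for the 78. It was -0.48 for cytosolic ribosomal proteins, -0.14 for oxidative phosphorylation genes, -0.45 for mitochondrial ribosomal proteins with other names and -0.35 for assembly genes. Translation factors had -0.25, tRNA synthetases -0.21, genes for mitochondrial DNA and its transcription -0.47 and regulators of biogenesis 0.03. The oxidative phosphorylation median thus came to that of all genes, -0.14. Between VAT KO and spleen KO, the median was -0.57 for cytosolic ribosomal proteins (10 of 78 lower) and -0.30 for oxidative phosphorylation genes (1 of 76 lower). With spleen WT replicate 2 left out of the shared estimate of spread, these counts were 66 and 17, beside 11.4% of all genes called lower in place of 6.94%. With all 10 libraries, the genes of the mitochondrial lists called between VAT KO and spleen KO were Ngrn (-1.13), Tufm (-0.55), Twnk (-0.93), Mterf1a (-0.81) and Pprc1 (-0.72), all lower, and Trmt61b (0.95) and Polg2 (1.06), both higher in VAT KO. Between KO and WT, no gene of these lists was called in VAT or in spleen. In VAT, the smallest unadjusted p of the assembly list belonged to Mrm2 (0.77, adjusted p = 0.270), and medians lay between -0.04 and 0.16.

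**Figure D5:**
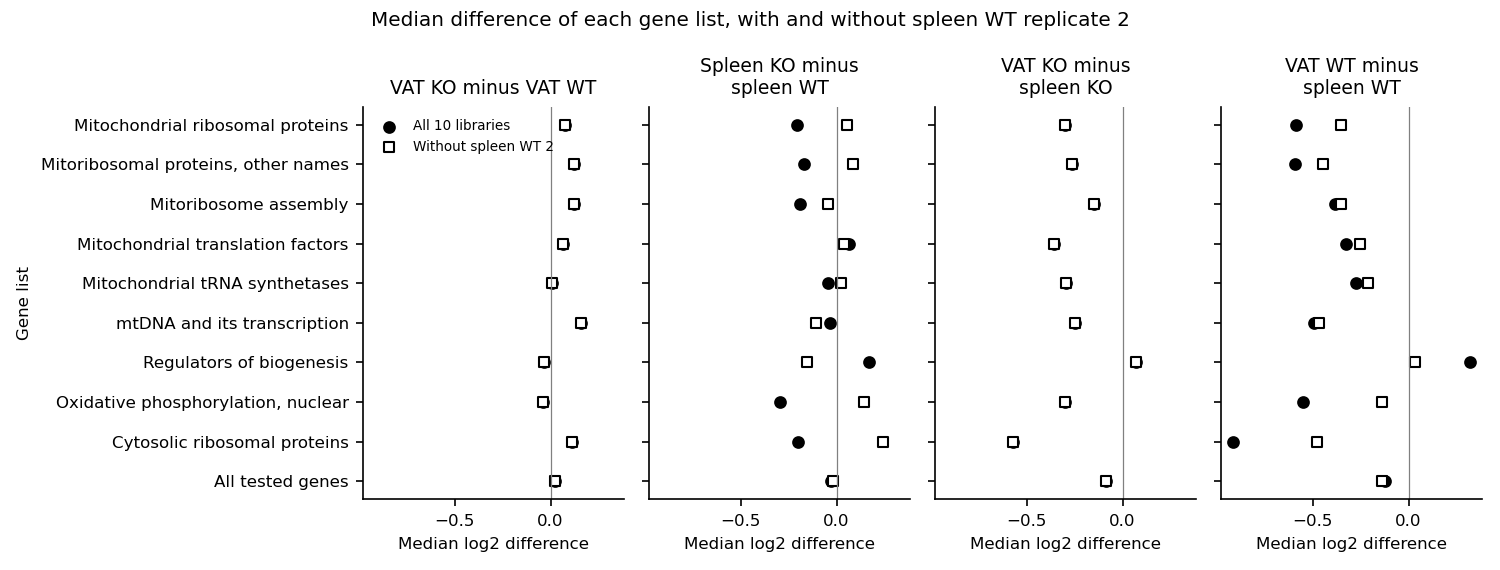
Median log2 difference of each gene list in 4 comparisons, with all 10 libraries (filled circles) and without spleen WT replicate 2 (open squares). In VAT KO minus VAT WT all medians lie near 0, and the circles and squares part most for cytosolic ribosomal proteins and oxidative phosphorylation genes in the comparisons with spleen WT.

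Taken gene by gene, replicates of a group differed about as much in these genes as in others. The median SD within groups was 0.245 on the log2 scale, against 0.251 over all tested genes, and 0.197 against 0.212 with spleen WT left out of it. Such an SD does not show shifts shared by many genes. Spleen WT replicate 2 was above replicate 3 for 76 of the 78, against 48.1% of all tested genes. Mrpl34 varied most, with 38.44, 24.979 and 57.713 RPKM in VAT KO libraries, 41.705, 38.809 and 25.944 in VAT WT libraries, 63.249 and 63.334 in spleen KO, and 83.987 and 45.685 in spleen WT (SD 0.469). Mrpl20 (0.404) and Mrps12 (0.360), whose bacterial counterpart lies at the decoding centre, came next. Mrpl43 varied least (0.126), with 13.994, 14.441 and 17.921 RPKM in VAT KO libraries, 13.49, 13.783 and 12.903 in VAT WT libraries, 15.426 and 17.479 in spleen KO, and 17.868 and 16.122 in spleen WT. Mrpl15 (0.134) and Mrps2 (0.142) were also steady.

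The genes lie on 17 chromosomes. In GRCm38.p6 coordinates, Mrpl58 (Entrez 68572) spans 115403724 to 115412674 on chromosome 11, Mrpl52 (68836) 54426909 to 54429750 on chromosome 14, Mrps18b (66973) 35910380 to 35916440 on chromosome 17, and Mrpl53 (68499) 83109108 to 83109932 on chromosome 6. Mrpl36 (94066) spans 73328503 to 73332178 on chromosome 13, Mrps6 (121022) 92058336 to 92112227 on chromosome 16, Mrps7 (50529) 115604140 to 115608036 on chromosome 11, and Mrpl23 (19935) 142532467 to 142540747 on chromosome 7. The library kit did not mark strand, and by GENCODE 23 of the 78 share exon bases with another protein-coding gene, whose reads cannot be told apart there. Of the genes placed above, Mrpl53 shares 695 of its 790 exon bases with Gm42688, on the same strand. Mrps6 shares 159 with Slc5a3 and 305 with Gm49711, Mrps7 127 with Gga3 and 119 with Mif4gd, and Mrpl36 30 with Ndufs6. Among other genes named, Mrps34 shares 1309 of 2064 bases with Mapk8ip3 and 763 with Nme3. Mrps25 shares 4590 of 6576 with Nr2c2, and Mrpl43 507 of 1520 with Twnk. Mrps18b shares 638 bases with the antisense gene Gm16279, and Mrpl58 2 with Ict1os. Pseudogenes are named after 4 of the genes, Mrpl23, Mrpl27, Mrpl48 and Mrps36, whose values are uncertain where reads were shared.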

How the data were processed

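Per the labels' protocols, RNA of sorted Tregs (Quick-RNA MicroPrep) was amplified with a SMART-seq kit and made into Nextera XT libraries, which keep no strand. STAR and mm10 were used, per the submitters' processing notes. Which counter, gene models and filters were applied is not given in the sources used here. Per gene and library, the authors deposited RPKM, per the file headers. Low values did not give whole reads, so depth stays unknown and counting errors could not be computed. Of 11 samples in the labels, 10 had a matching column. Another 1 column of per-sample values, headed as spleen WT replicate 1 where the labels name a spleen KO replicate 1, matched no sample and was not used; which library it holds is not known here.

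RPKM plus a pseudocount of 1 was put on the log2 scale, and the 10429 genes that reached 1 RPKM in 2 or more samples were tested, all 78 genes included. One limma fit (limma 3.58.1, R 4.3.3) had 4 group means, trend on and robust off; residual degrees of freedom were 6 and prior ones 6.44. Tests were two-sided, p-values were Benjamini-Hochberg adjusted over all tested genes of a comparison, and genes were called under 0.05. Errors are standard errors for log2 differences and SDs for RPKM. Fold changes on this scale understate changes of low genes. The design had assumed 11 samples. Genes named are those called with the smallest p (up to 12 a comparison), the 3 highest and 3 lowest differences, levels and SDs, and called genes of each list; the Mrps18 relatives and some others were named after their values were seen. The genes, lists and tests were chosen with earlier results of these data known. Coordinates and promoters are from RefSeq (GRCm38.p6) and exon overlaps from GENCODE. The fit was tested on simulated data. Alternatives were other pseudocounts and filters, quantile and median-ratio scaling, sample weights, a replicate block, the compared groups alone, and each library left out.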

Additional observations from a re-analysis of the deposited data

Results flagged for a closer look

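Mrps2 was singled out because genotype went opposite ways in the 2 tissues: KO was above WT in all VAT libraries and below WT in all spleen libraries, and the difference of the 2 effects was 0.86 ± 0.28 on the log2 scale. The interaction was tested and had a limma adjusted p of 0.621, so the difference did not hold up after correction over all genes. It was 0.81 without spleen WT replicate 2. Of all tested genes, 8.97% had KO above WT without overlap in VAT, and 17.5% had KO below WT without overlap in spleen. How many had both was not counted. Outlying samples could not be tested, since no group had 4 or more libraries.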

How the results depend on the processing

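The calls of single comparisons depended on the processing more than the direction did. For VAT WT against spleen WT, 35 of the 78 genes (44.9%, against 15.4% of all genes) were called lower. Quantile normalization gave 19 (24.4% against 12.6%), median-ratio scaling 13 (16.7% against 9.87%) and sample weights 8 (10.3% against 6.4%). Replicate numbers as a block gave 17 (21.8% against 11.1%) and the 2 groups alone 12 (15.4% against 8.87%). For VAT KO against spleen KO, 5 (6.41%, against 6.94% of all genes) were called lower. Quantile normalization gave 3 (3.85% against 6.93%), median-ratio scaling 3 (3.85% against 5.34%) and sample weights 13 (16.7% against 12.1%). The replicate block gave 2 (2.56% against 4.47%) and the 2 groups alone 13 (16.7% against 11%). For the averaged tissue difference, 46 (59%, against 21.5% of all genes) became 24 with median-ratio scaling (30.8% against 14.8%). With each library left out in turn, the counts of genes called lower were 4 to 54, 1 to 12 and 26 to 56 in these 3 comparisons, with medians of -0.88 to -0.35, -0.38 to -0.30 and -0.63 to -0.34. KO against WT gave 0 in VAT under each (medians -0.01 to 0.10) and 0 to 12 in spleen (-0.48 to 0.0561), and the interaction 0 to 2 called higher (0.0074 to 0.51). The difference of Mrps18a in WT, near 0, was -0.0062 with the replicate block and -0.10 to 0.11 with each library left out (below 0 without replicate 1 or 3 of VAT WT or replicate 3 of spleen WT), and Mrpl33 turned to -0.14 without spleen WT replicate 3. Mrps24, averaged over genotypes, had -0.07, which became 0.0562 with quantile normalization and 0.0506 with median-ratio scaling, and -0.23 to 0.0893 with each library left out (above 0 without spleen WT replicate 2). The cause was not tested. Deviations of same-numbered KO and WT libraries had correlations of -0.09, 0.05 and -0.15 in VAT. In spleen both pairs gave -0.06, which is 1 value, since with 2 libraries a group the pairs must be equal. Correlations of same-numbered VAT and spleen libraries were all above 0, at 0.0031 and 0.0463 in KO and 0.0919 and 0.1836 in WT. Not every pair was over 0.1 in any comparison, so the numbers were not taken as pairs. The interaction was not run for 2 groups alone, which it cannot use. Read depth is unknown, and 2 libraries per spleen group limit what can be called there.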
